A study of Mus musculus with 6 samples.

Results

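The genes described here encode the ligands of the tumour necrosis factor (TNF) superfamily and their receptors, in cardiomyocyte cultures from newborn mice under hypoxia with or without fibroblast growth factor 21 (FGF21). They were found by gene symbol: every gene of the array whose only symbol in the platform annotation begins with Tnfsf or Tnfrsf, or is one of the family's older names such as Tnf, Lta, Fas, Cd40 or Ngfr. The rule gave 43 of the 22180 genes with a row, 16 ligands and 27 receptors, with 1 row each. Tnfsf12 and Tnfsf13, which encode TWEAK and APRIL, share 1 row with a further symbol and were not analysed here, and neither was another row that Tnfrsf18 shares with a second gene.

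All 6 samples were cardiomyocyte cultures from hearts of 1-day-old C57BL/6 mice, enriched by plating the digest for a short time and keeping the cells that had not yet attached. All were kept for 12 h at 2% oxygen, 5% CO2 and 93% nitrogen, 3 of them with FGF21 at 1 µg/ml and 3 controls without it. There is no normoxic group, so the values say nothing of how hypoxia moves these genes. The sample titles call the replicates biological. Whether they were separate litters or wells of one preparation is not given. The p-values therefore reflect variation among these 6 arrays alone, part of which could be technical.

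TNF ligands are mostly made as trimeric membrane proteins, many of which can be shed, and each binds one or a few receptors. Receptors with a death domain can recruit adaptors such as FADD and TRADD and so start caspase-dependent death, while the others bind TRAF proteins directly and signal to NF-kB and stress kinases. Decoy receptors bind ligand without carrying the signal into the cell. In the heart, TNF is known as a stress cytokine, and FN14, the product of Tnfrsf12a, was first described as a gene inducible by fibroblast growth factor.

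Values are deposited log2 values from the robust multi-array average (RMA), and differences are FGF21 minus control on that scale, with the standard error (SE) or SD named. A gene was called when its adjusted p from limma, over all 22180 genes, was under 0.05. The medians of the arrays lay between 5.76 and 5.79 with FGF21 and between 5.81 and 5.83 in controls, and members whose mean lies below the lowest of them are marked as dim, since a probe set there may not be above background. By this measure 15 members were dim and 28 were not. Genes that were not dim are described as above the array medians, though single arrays could lie below. All 8 cardiomyocyte markers were above the medians, with list means of 11.9 to 12.0, and so were all 8 fibroblast, 10 endothelial and 10 myeloid markers. In such bulk RNA, fewer cells of a type and less RNA per cell cannot be told apart.

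No member was called. The clearest difference was that of Tnfrsf9, which was 1.46-fold lower with FGF21, followed by the ligand gene Lta (1.27-fold lower), the death receptor gene Tnfrsf25 (1.23-fold lower) and the TRAIL receptor gene Tnfrsf10b (1.17-fold higher). The ligand gene Tnf, the TNF receptor genes Tnfrsf1a and Tnfrsf1b, and the FN14 gene Tnfrsf12a differed by no more than 0.10.

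limma called 0 of the 43 members, as it did 0% of all genes. The smallest adjusted p among members, 0.0685, was that of Tnfrsf9, the only member of the 28 genes at an adjusted p under 0.1. An unadjusted p under 0.05 was reached by 7 members. 2 of them, 4.65% of members, were higher with FGF21, where 6.59% of all genes were, and 5, or 11.6% of members, were lower, where 5.11% of all genes were. Among the 28 members above the array medians the shares were 7.14% higher and 17.9% lower, beside 10.0% and 4.35% of all such genes. Without control replicate 3 the counts of members were 1 higher and 3 lower. The higher count was also 1 without FGF21 replicate 1 or control replicate 1, and the lower count also 3 without FGF21 replicate 3. Of all genes at an unadjusted p under 0.05, 56.3% were higher; centring each array on its median made this 79.9%, with 3 members higher and 5 lower.

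Counted without a model, the 3 values of one group all lay above the 3 of the other in 8 members. In 3 members, 6.98%, the FGF21 arrays were the higher ones, beside 8.99% of all genes. In 5, 11.6%, they were the lower ones, beside 8.14% of all genes. Of the 13403 genes above the array medians, 1796 were apart on the higher side and 887 on the lower, where 3 and 5 of the 28 members were. All 8 separated members had a mean over the 6 arrays above the lowest array median. Lta lay below the array's own median in 2 arrays, and Tnfrsf19 and Tnfrsf18 in 1 each. An exact two-sided permutation test over the 20 splits of 6 arrays gives each of these 8 a p of 0.1, the smallest that 3 against 3 can give. The median difference was -0.03 over the 43 members and -0.01 over all genes. The median was -0.04 over the dim genes of the array and 0.02 over the others. The 28 members above the array medians had a median of -0.03.

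**Figure D1:**
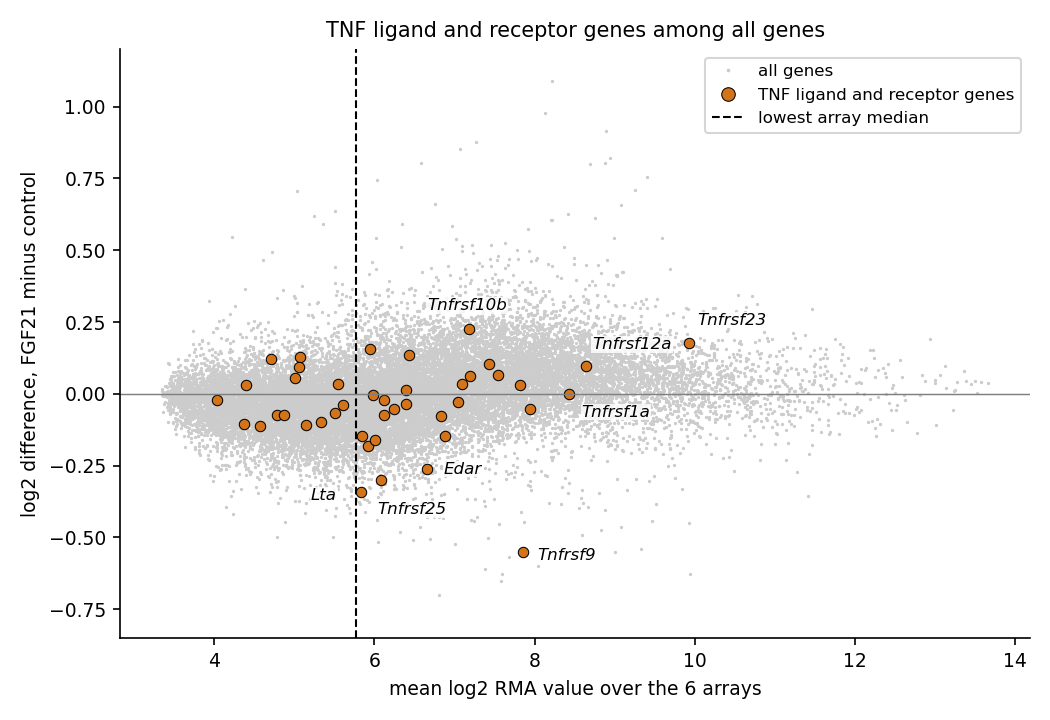
Mean log2 RMA value over the 6 arrays (x axis) against the log2 difference of FGF21 minus control (y axis) for all 22180 genes in grey and the 43 TNF ligand and receptor genes in orange; the dashed line is the lowest array median, 5.76. Tnfrsf9, at -0.55, lies apart from the other members, which run from -0.34 (Lta) to 0.23 (Tnfrsf10b).

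Tnfrsf9 encodes 4-1BB (CD137), a co-stimulatory receptor of activated T cells that is also known from activated endothelium and myeloid cells, and that signals through TRAF1 and TRAF2. Its probe set, 17421981, read 7.43, 7.66 and 7.65 in FGF21 arrays 1, 2 and 3, and 8.16, 8.18 and 8.05 in control arrays 1, 2 and 3. The groups did not overlap: the lowest control lay 0.39 above the highest FGF21 array. Means were 7.58 ± 0.129 (SD, n = 3) with FGF21 and 8.13 ± 0.0723 in controls, a difference of -0.55 ± 0.08 (SE), or 1.46-fold lower with a 95% interval of 1.29 to 1.66. With any 1 array left out, the difference stayed between -0.59 and -0.48, with limma adjusted p-values from 0.119 without FGF21 replicate 1 to 0.273 without control replicate 1. Over all alternatives the adjusted p ran from 0.0359 to 0.426. It was under 0.05 in 4 of them: with dim genes left out (0.0359), with genes under the 25th percentile left out (0.0434), with a robust prior that follows a trend in level (0.044) and after a further quantile normalization (0.0459).

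Its ligand, 4-1BBL, is encoded by Tnfsf9. Tnfsf9 read 6.62, 6.45 and 6.41 with FGF21 and 6.09, 6.43 and 6.55 in controls. The groups overlapped, with control replicate 1 alone below the rest, and the difference of 0.14 ± 0.11 (SE) was 0.00382 without that array. The adaptor genes Traf1 and Traf2 differed by 0.06 ± 0.06 and 0.02 ± 0.08 (SE).

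**Figure D2:**
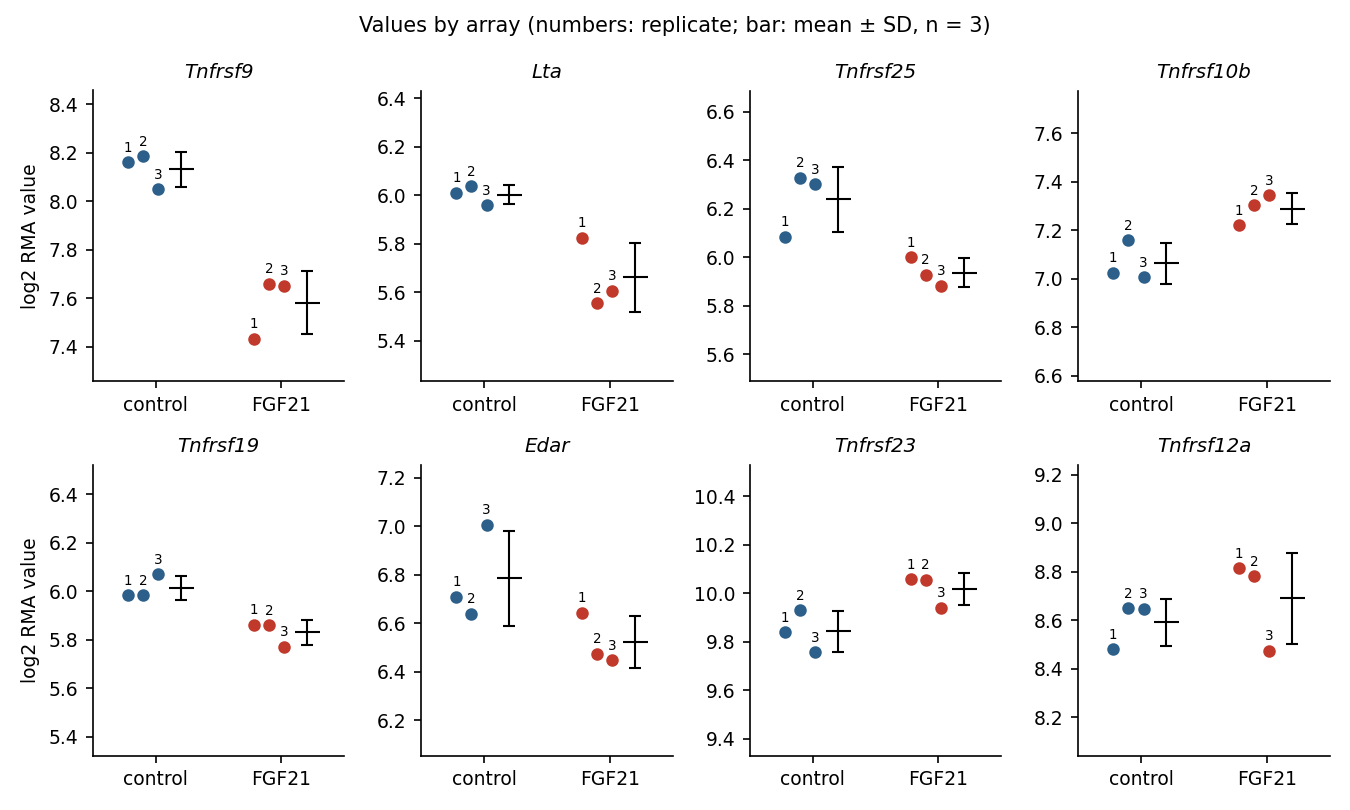
Log2 RMA values by array for the 7 members with an unadjusted p under 0.05 and for Tnfrsf12a, each panel spanning 1.2 log2 units; points are arrays with their replicate number, and bars are means ± SD (n = 3). The groups are separate in 6 panels and overlap for Edar and Tnfrsf12a.

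Endothelial markers were lower in the same arrays as Tnfrsf9. Of 10 markers, all above the array medians, 9 were lower with FGF21, 7 of them at an unadjusted p under 0.05 (6 to 8 with any 1 array left out), and none was called. These 7 are 70.0% of the list, beside 4.35% of all genes above the array medians. Kdr, the VEGF receptor gene, read 6.85, 7.23 and 7.15 with FGF21 and 8.10, 7.60 and 7.36 in controls, and Cdh5, the gene of the endothelial cadherin, differed by -0.44 ± 0.13 (SE). Tie1 and Tek differed by -0.04 and 0.00. The mean of the 10 markers was 7.08 to 7.34 with FGF21 and 7.44 to 7.64 in controls, so the groups did not overlap there either. FGF21 replicate 1 was the lowest array for Tnfrsf9 and for the endothelial mean, while control replicate 1 was the highest array for the endothelial mean and control replicate 2 for Tnfrsf9. The part of endothelial RNA in the Tnfrsf9 difference was not tested.

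Markers of the immune cells in which 4-1BB is best known gave mostly dim values. Of 9 T cell and NK cell markers, 7 were below the lowest array median, among them Cd3d, Cd3e, Cd3g and Cd8a. At an unadjusted p under 0.05, 2 of the 9 were lower, or 22.2%, beside 5.11% of all genes and 6.27% of all dim genes. The count of lower markers was 1 without FGF21 replicate 1, 2 or 3. It was 0 without control replicate 1, with median centring and after a further quantile normalization. The mean of the 9 markers was 5.44 to 5.55 with FGF21 and 5.59 to 5.61 in controls, so the groups did not overlap. Dim genes of the array were mostly lower with FGF21 too, with 32.3% of differences above 0 and a median of -0.04. The median of the 9 markers was -0.08, and it was -0.04 with median centring and after a further quantile normalization. The part of T cell or NK cell RNA in the Tnfrsf9 difference was not tested. All 5 B cell markers were dim, with means of 5.14 to 5.41 with FGF21 and 5.34 to 5.37 in controls. Of the 5, 4 had a difference below 0, and the median was -0.12. At an unadjusted p under 0.05, 1 was lower, Cd79b, or 20.0%, beside 6.27% of all dim genes. The count of lower B cell markers was 4 without FGF21 replicate 1. It was 0 without any other single array, with median centring and after a further quantile normalization. Of 6 mast cell markers 4 were dim, with means of 5.16 to 5.29 and 5.23 to 5.33. All 10 myeloid markers were above the medians, with means of 7.72 to 7.93 with FGF21 and 7.80 to 7.83 in controls, so these groups overlapped. At an unadjusted p under 0.05, 1 was higher (Ptprc, 0.20) and 1 lower (Cd68, -0.20). Each is 10.0% of the list, beside 10.0% higher and 4.35% lower among all genes above the array medians. The counts were 2 higher and 1 lower without FGF21 replicate 1, and 0 higher and 3 lower without FGF21 replicate 2. The cardiomyocyte mean overlapped as well, at 11.87 to 11.90 and 11.88 to 12.01.

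**Figure D3:**
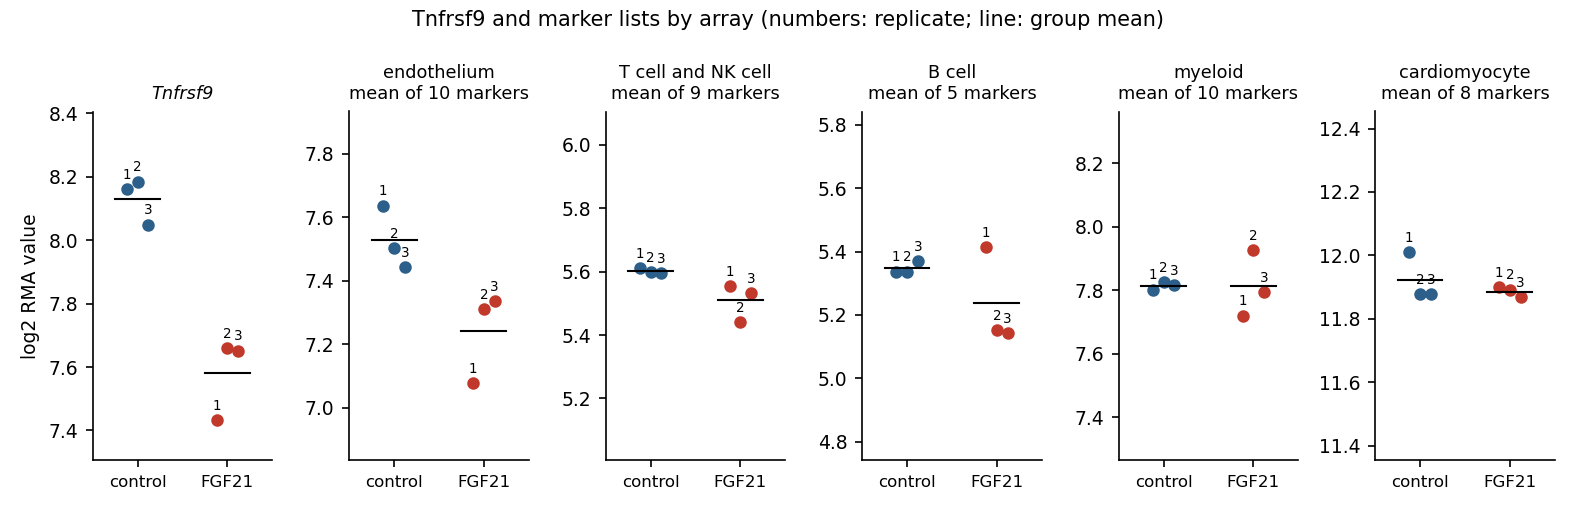
Log2 RMA values of Tnfrsf9 and the mean log2 value of 5 marker lists by array, each panel spanning 1.1 log2 units; points are arrays with their replicate number, and lines are group means (n = 3). Tnfrsf9, the endothelial mean and the T cell and NK cell mean are lower in all 3 FGF21 arrays than in any control, and the B cell, myeloid and cardiomyocyte means overlap. Of the 9 T cell and NK cell markers, 7 are dim.

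The windows around the transcription starts of the 3 members with the smallest p, Tnfrsf9, Lta and Tnfrsf25, are printed because these genes differ most with FGF21. RefSeq windows of 300 bases, 250 before and 50 after a start on build GRCm38.p6, were matched for 34 of the 43 members, in 38 windows. Searched on both strands were the NF-kB motif (GGG, any 5 bases, then CC), the core of the hypoxia response element as ACGTG or GCGTG, and the AP-1 motif TGANTCA. Capitals mark the bases of a match, and overlapping matches run together.
Tnfrsf9, upstream start, chr4:150919905-150920204, plus strand: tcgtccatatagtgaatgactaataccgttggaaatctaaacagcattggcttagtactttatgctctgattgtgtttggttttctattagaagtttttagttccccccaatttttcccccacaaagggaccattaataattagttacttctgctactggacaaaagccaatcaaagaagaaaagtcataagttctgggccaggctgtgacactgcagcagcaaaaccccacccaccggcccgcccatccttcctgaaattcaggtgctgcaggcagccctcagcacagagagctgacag
Tnfrsf9, downstream start, chr4:150927749-150928048, plus strand: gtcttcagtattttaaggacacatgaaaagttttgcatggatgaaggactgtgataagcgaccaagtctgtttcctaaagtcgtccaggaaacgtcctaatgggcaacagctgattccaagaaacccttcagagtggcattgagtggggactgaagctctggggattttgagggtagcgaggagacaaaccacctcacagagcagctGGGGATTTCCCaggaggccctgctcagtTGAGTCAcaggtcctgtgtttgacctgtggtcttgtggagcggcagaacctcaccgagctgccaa
Lta, chr17:35205302-35205601, minus strand: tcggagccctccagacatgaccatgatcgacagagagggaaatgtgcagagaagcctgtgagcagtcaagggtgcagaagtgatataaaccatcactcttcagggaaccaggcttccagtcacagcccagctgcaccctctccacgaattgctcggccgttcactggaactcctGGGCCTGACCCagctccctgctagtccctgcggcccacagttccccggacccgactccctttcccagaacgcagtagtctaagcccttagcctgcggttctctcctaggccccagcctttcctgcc
Tnfrsf25, upstream start, chr4:152115684-152115983, plus strand: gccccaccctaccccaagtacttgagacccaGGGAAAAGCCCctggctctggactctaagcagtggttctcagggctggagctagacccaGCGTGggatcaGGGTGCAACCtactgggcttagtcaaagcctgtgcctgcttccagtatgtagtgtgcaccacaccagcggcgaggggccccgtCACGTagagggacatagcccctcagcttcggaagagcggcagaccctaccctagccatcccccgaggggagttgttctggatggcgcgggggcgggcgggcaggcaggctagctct
Tnfrsf25, downstream start, chr4:152116093-152116392, plus strand: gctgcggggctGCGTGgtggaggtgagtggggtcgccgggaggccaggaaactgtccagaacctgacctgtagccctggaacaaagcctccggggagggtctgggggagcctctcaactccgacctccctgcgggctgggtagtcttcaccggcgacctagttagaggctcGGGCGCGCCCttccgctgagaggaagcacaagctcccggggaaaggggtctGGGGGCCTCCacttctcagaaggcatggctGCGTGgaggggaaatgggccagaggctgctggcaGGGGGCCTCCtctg

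The upstream Tnfrsf9 window held 0 matches to these motifs. The downstream one held 2 overlapping NF-kB matches and 1 AP-1 match, and the Lta window 2 overlapping NF-kB matches. Each Tnfrsf25 window held 3 NF-kB matches and 2 matches to the hypoxia core. NF-kB matches are common: 50.8% of all 32851 windows of this length and 65.8% of the members' windows held at least 1. The shares were 43.8% and 52.6% for the hypoxia core and 7.81% and 15.8% for AP-1. A match describes the letters alone.

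Among the ligands, Lta had the smallest p from limma. Lta encodes lymphotoxin alpha, which binds the TNF receptors as a soluble trimer and joins lymphotoxin beta, from Ltb, to bind the lymphotoxin beta receptor; Lta, Tnf and Ltb lie next to each other in the genome. Lta read 5.82, 5.56 and 5.61 with FGF21 and 6.01, 6.04 and 5.96 in controls. All FGF21 arrays were lower, and 2 of them lay below their own array's median, so its level there may not be above background. The difference was -0.34 ± 0.08 (SE), with a limma adjusted p of 0.194, and ran from -0.42 to -0.29 with any 1 array left out.

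Tnf itself was dim, at 5.58, 5.54 and 5.58 with FGF21 and 5.48, 5.58 and 5.55 in controls. The groups overlapped, and the 95% interval of the difference was -0.10 to 0.17. Ltb read 6.41, 6.35 and 6.36 against 6.44, 6.35 and 6.43, also overlapping, with an interval of -0.17 to 0.10. Of the 3 neighbouring ligand genes, Lta alone had groups that did not overlap; whether its difference exceeds those of Tnf and Ltb was not tested.

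The genes of the death ligands FASL and TRAIL were dim. Fasl, the ligand of Fas, read 4.91, 4.65 and 4.93 with FGF21 and 4.98, 4.81 and 4.93 in controls. Tnfsf10, which encodes TRAIL, read 4.43, 4.27 and 4.55 against 4.35, 4.37 and 4.43. In both genes the groups overlapped, and every array lay below its own median. Tnfsf11, which encodes RANKL, the factor that drives osteoclast formation, was dim as well, at 5.53, 5.42 and 5.48 against 5.73, 5.45 and 5.45.

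Above the array medians were Eda, the gene of ectodysplasin, and Tnfsf13b, the gene of the B cell survival factor BAFF. Eda read 6.91, 6.82 and 6.66 with FGF21 and 6.98, 6.79 and 6.85 in controls, and Tnfsf13b 6.19, 6.13 and 5.94 against 6.22, 6.26 and 6.01. Both overlapped, each with a difference of -0.08. The other 7 ligand genes, Cd40lg, Cd70, Tnfsf4, Tnfsf8, Tnfsf14, Tnfsf15 and Tnfsf18, most of them known from lymphocytes and antigen-presenting cells, were all dim, with differences from -0.10 to 0.13 and limma adjusted p-values of at least 0.663. In all, 11 of 16 ligand genes were dim, and the median difference of the 16 was -0.04.

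The 7 death domain receptors were all above the array medians, and they went both ways: 3 had an unadjusted p under 0.05, 1 higher and 2 lower. These are 14.3% and 28.6% of the 7, beside 10.0% and 4.35% of all genes above the array medians. Tnfrsf10b, the mouse TRAIL receptor that transmits death signals, read 7.22, 7.30 and 7.34 with FGF21 and 7.02, 7.16 and 7.01 in controls. The groups did not overlap, and the difference of 0.23 ± 0.07 (SE) lay between 0.20 and 0.27 with any 1 array left out, with a limma adjusted p of 0.286. Fas read 7.203, 7.25 and 7.23 against 7.07, 7.15 and 7.27. Its groups overlapped through control replicate 3, with an interval of the difference from -0.09 to 0.22.

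Tnfrsf25, which encodes DR3, the receptor of the TL1A ligand, read 6.00, 5.93 and 5.88 with FGF21 and 6.08, 6.33 and 6.30 in controls. The FGF21 arrays were all lower, by -0.30 ± 0.08 (SE) on average, with a limma adjusted p of 0.227. Its ligand gene Tnfsf15 was dim and differed by 0.13 ± 0.10 (SE). Edar, the ectodysplasin receptor of skin appendages, read 6.64, 6.48 and 6.45 against 6.71, 6.64 and 7.01. Control replicate 3 was the highest, and without it the difference of -0.26 became -0.15.

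Ngfr, the low-affinity neurotrophin receptor p75, read 5.86, 6.03 and 5.88 with FGF21 and 5.97, 6.18 and 6.10 in controls, overlapping through FGF21 replicate 2. Tnfrsf1a, the main receptor of TNF on most cells, read 8.45, 8.42 and 8.42 against 8.56, 8.42 and 8.32. The FGF21 arrays lay inside the range of the controls, and the interval of the difference was -0.16 to 0.16. Tnfrsf21, which encodes DR6, differed by -0.03 ± 0.08 (SE).

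**Figure D4:**
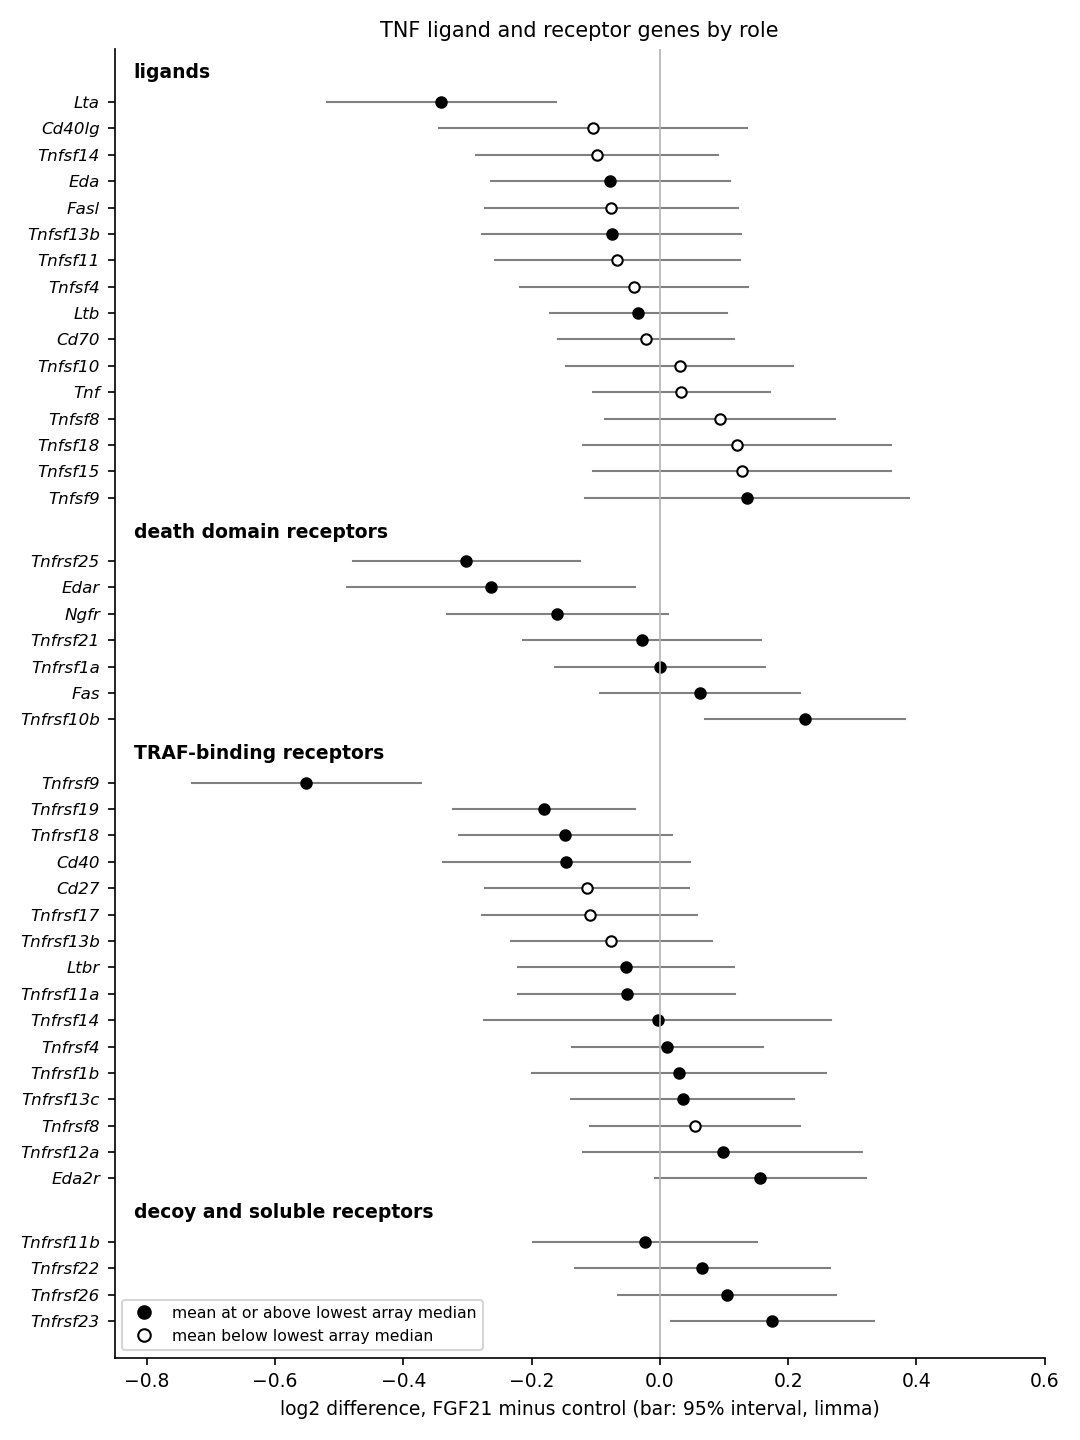
Log2 difference of FGF21 minus control for the 43 members by role, with 95% intervals from limma; open points are the 15 members whose mean lies below the lowest array median. Intervals of 7 members exclude 0: Lta, Tnfrsf25, Edar, Tnfrsf9 and Tnfrsf19 on the lower side, Tnfrsf10b and Tnfrsf23 on the higher side.

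Of the 16 receptors that bind TRAF proteins without a death domain, 2 had an unadjusted p under 0.05, both lower with FGF21: Tnfrsf9 and Tnfrsf19. This is 12.5% of the 16, of which 4 were dim, beside 5.11% of all genes and 4.35% of all genes above the array medians. The count of lower receptors was 1 without FGF21 replicate 3 or control replicate 3, and 3 without control replicate 1. Tnfrsf19, which encodes TROY, a receptor known from neural and epithelial tissue, read 5.86, 5.86 and 5.77 with FGF21 and 5.98, 5.98 and 6.07 in controls. The groups did not overlap, but the values were close to the array medians, and the difference of -0.18 ± 0.06 (SE) had a limma adjusted p of 0.335. Eda2r, the ectodysplasin A2 receptor and a known p53 target, read 6.15, 5.92 and 6.00 against 5.92, 5.83 and 5.86. Its groups were apart by only 0.00177, between FGF21 replicate 2 and control replicate 1. Tnfrsf18, the gene of GITR, a TNF superfamily receptor known from T cells, read 5.67, 5.82 and 5.82 against 5.86, 6.03 and 5.88, with the FGF21 arrays lower by -0.15 ± 0.07 (SE).

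Tnfrsf12a, the FN14 gene, read 8.82, 8.78 and 8.47 with FGF21 and 8.48, 8.65 and 8.65 in controls. FGF21 replicates 1 and 2 were the highest arrays and FGF21 replicate 3 the lowest, so the groups overlapped. The difference of 0.10 ± 0.10 (SE) had an interval of -0.12 to 0.32, and leaving out FGF21 replicate 3 gave 0.21, leaving out FGF21 replicate 1 gave 0.04. Its ligand TWEAK, from Tnfsf12, was not analysed here.

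Tnfrsf1b, the second TNF receptor, read 7.60, 8.06 and 7.83 with FGF21 and 7.81, 7.80 and 7.80 in controls. The controls agreed to 0.00495 (SD), while the FGF21 arrays lay on both sides of them, with an SD of 0.23. Ltbr, the lymphotoxin beta receptor, read 7.80, 8.06 and 7.90 against 7.97, 7.996 and 7.95, with the same order of FGF21 arrays and the groups overlapping. Cd40, a receptor of antigen-presenting cells and activated endothelium, read 6.91, 6.82 and 6.69 against 6.80, 7.04 and 7.02, overlapping, at -0.15 ± 0.09 (SE). Cd27, the gene of a TNF superfamily receptor known from lymphocytes, was dim, at 4.50, 4.50 and 4.54 against 4.75, 4.54 and 4.60.

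Of the 4 decoy and soluble receptors, 3 had a difference above 0, or 75.0%, beside 57.9% of all genes above the array medians. Tnfrsf23 and Tnfrsf22 encode mouse decoy receptors of TRAIL, and with Tnfrsf26 they form a cluster of neighbouring, closely related genes, so their values are uncertain where probes could bind more than 1 of them. Tnfrsf23 read 10.06, 10.05 and 9.94 with FGF21 and 9.84, 9.93 and 9.76 in controls. The groups were apart by 0.0106, and the difference of 0.18 ± 0.07 (SE) had a limma adjusted p of 0.384. Tnfrsf22 and Tnfrsf26 differed by 0.07 ± 0.09 and 0.10 ± 0.08 (SE). Tnfrsf11b, the gene of osteoprotegerin, the soluble decoy of RANKL, read 6.13, 5.97 and 6.21 against 6.21, 6.11 and 6.07 and overlapped.

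The remaining receptor genes were Tnfrsf4, Tnfrsf8, Tnfrsf11a, Tnfrsf13b, Tnfrsf13c, Tnfrsf14 and Tnfrsf17, most of them lymphocyte receptors apart from the RANK gene Tnfrsf11a. Together with Tnfrsf21, Tnfrsf22 and Tnfrsf26 they are the 10 receptors not described array by array, with differences from -0.11 to 0.10 and limma adjusted p-values of at least 0.599. Tnfrsf8, Tnfrsf13b and Tnfrsf17 were dim. For 41 of the 43 members the 95% interval lay within 0.5 on either side of 0; the others were Tnfrsf9 and Lta. Intervals reached between 0.137 and 0.270 to each side of the estimate.

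For the receptors with the smallest p that have a measured ligand, the values of the pair stand side by side. Tnfrsf9 was lower and Tnfsf9 differed by 0.14, Tnfrsf25 was lower and Tnfsf15 differed by 0.13, and Tnfrsf10b was higher while Tnfsf10 differed by 0.03. Edar was lower, and Eda differed by -0.08. None of these ligand differences had a limma adjusted p under 0.663, and no test set a ligand's difference against its receptor's.

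Of the genes that act directly below the receptors, limma called none. Of 32 genes on the list, 30 had a row, all above the array medians. A difference above 0 was found in 22 of them, 73.3%, beside 57.9% of all genes above the array medians. The list median was 0.06, beside 0.02 for those genes, and it was 0.03 without FGF21 replicate 3 and after a further quantile normalization. Traf3 and Ripk1 were not analysed here. An unadjusted p under 0.05 was reached by 3, all higher: Otulin, Tank and Casp8. This is 10.0% of the list, the same share as among all genes above the array medians, 10.0%. Median centring of each array made this 7, all higher, and a further quantile normalization 3 higher and 1 lower.

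Otulin, a deubiquitinase that trims linear ubiquitin chains at the TNF receptor complex, read 6.86, 6.91 and 6.94 with FGF21 and 6.59, 6.57 and 6.65 in controls. All FGF21 arrays were higher, by 0.30 ± 0.06 (SE), with a limma adjusted p of 0.167. Casp8, the initiator caspase of death receptors, read 9.09, 9.004 and 9.12 against 8.84, 8.98 and 8.73, higher by 0.22 ± 0.08 (SE) with groups apart. Tank, a TRAF-binding regulator of NF-kB, was higher by 0.20 ± 0.06 (SE). The death domain adaptor gene Fadd differed by 0.12 ± 0.07, Map3k7, the gene of the kinase TAK1, by 0.16 ± 0.07, Tab1 by 0.14 ± 0.08 and Tab2 by -0.04 ± 0.09 (SE).

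The NF-kB subunits, their inhibitors and kinases went both ways. Of 12 measured genes of 14, 0 were called, and 2 had an unadjusted p under 0.05, both lower: Relb, a subunit of the non-canonical pathway, at -0.18 ± 0.08 (SE), and the inhibitor gene Nfkbid at -0.19 ± 0.08. These 2 are 16.7% of the list, beside 4.35% of all genes above the array medians. In FGF21 replicates 2 and 3 Nfkbid read 5.73 and 5.67, below the lowest array median, so its level there may not be above background. The count of lower genes was 0 without control replicate 2 and 1 without FGF21 replicate 2, FGF21 replicate 3 or control replicate 3. With median centring 0 were lower and 2 higher. Rela differed by 0.14 ± 0.07, Nfkb2 by 0.12 ± 0.07, Rel by 0.12 ± 0.08 and Bcl3 by -0.18 ± 0.11 (SE). The list median was -0.02.

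Genes known as NF-kB targets went both ways as well. Of 25 measured genes of 26, 0 were called, 15 had a difference above 0 and the median was 0.01. An unadjusted p under 0.05 was reached by 2 higher genes, Ptgs2 and Ccl2, and 2 lower ones, the adhesion genes Sele and Icam1. Each pair is 8.0% of the list, beside 6.59% of all genes on the higher side and 5.11% on the lower. Among all genes above the array medians these shares were 10.0% and 4.35%. Ccl2, a monocyte chemokine gene, read 7.67, 8.11 and 7.82 with FGF21 and 7.57, 7.60 and 7.26 in controls, a difference of 0.39 ± 0.12 (SE). Icam1 read 6.51, 6.71 and 6.63 against 6.73, 6.74 and 6.95, and Sele, which was dim, differed by -0.29 ± 0.12 (SE). The lower count was 0 without control replicate 3 and 1 without FGF21 replicate 1 or FGF21 replicate 3, and 0 with median centring, which gave 5 higher. Vcam1, a further adhesion gene, differed by 0.13 ± 0.06, Cxcl5 by 0.15 ± 0.07, Ptgs2 by 0.31 ± 0.07 and Ier3 by 0.08 ± 0.06 (SE).

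**Figure D5:**
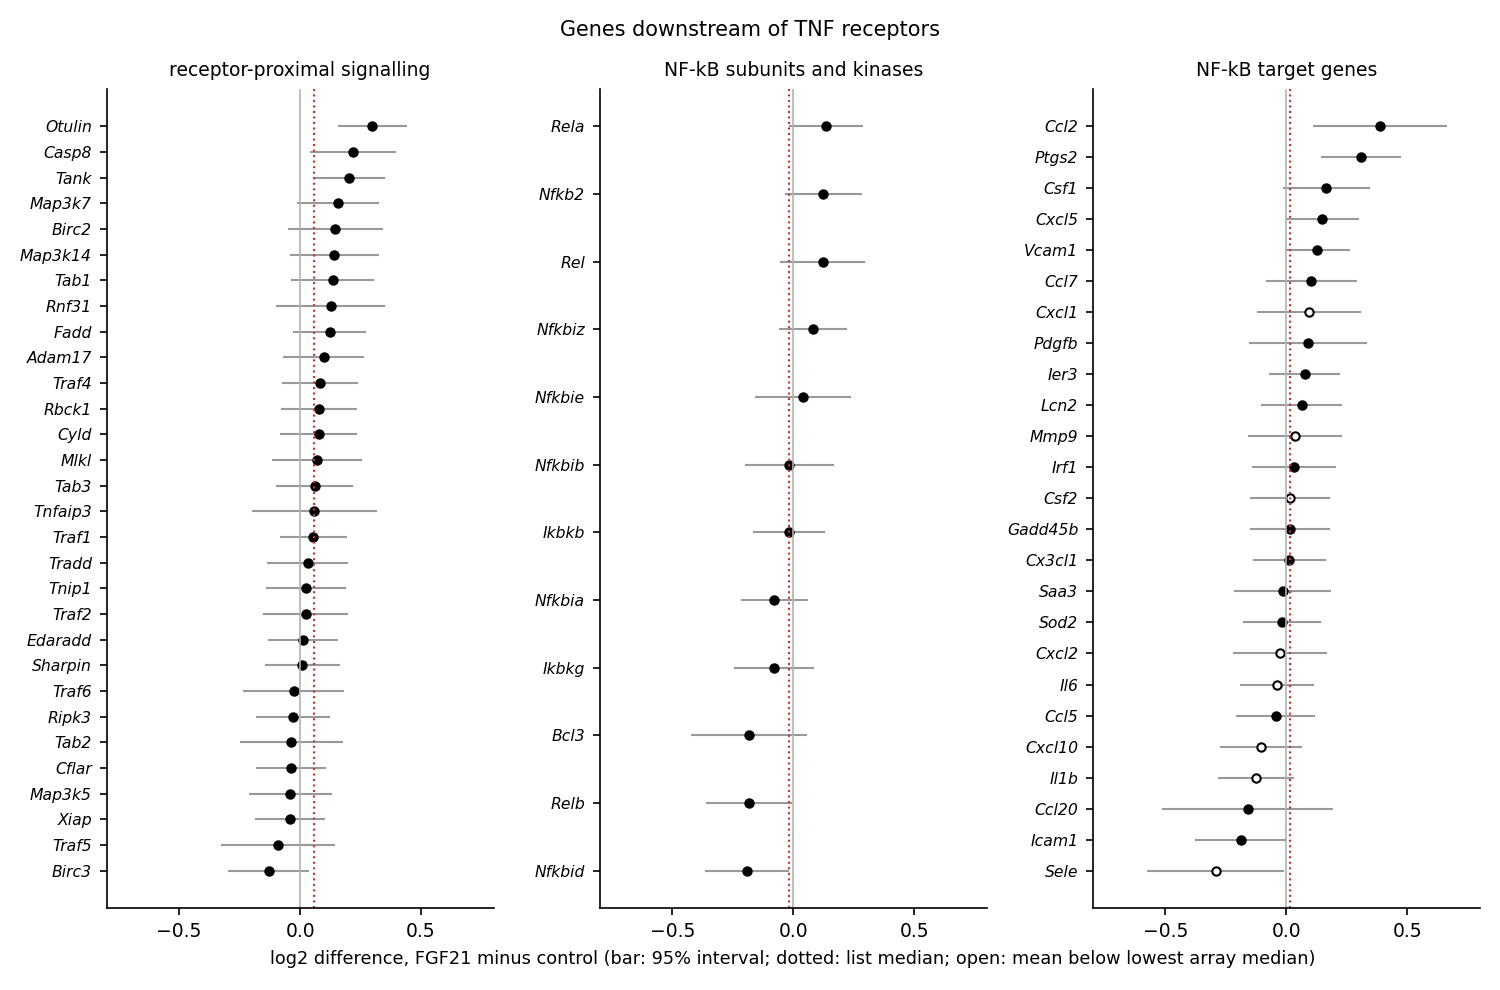
Log2 difference of FGF21 minus control for 30 receptor-proximal genes, 12 NF-kB subunits, inhibitors and kinases and 25 NF-kB targets, with 95% intervals from limma; dotted lines are the list medians (0.06, -0.02 and 0.01) and open points are genes below the lowest array median. Most intervals include 0, and the highest points are Otulin, Rela and Ccl2 in the 3 panels.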

How the data were processed

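Total RNA of 6 samples was measured on 1 Affymetrix Mouse Gene 2.0 ST array each. The deposited values are log2 expression made by the authors with R 3.2.2, affy and RMA, per the submitters' processing notes; RMA makes array distributions alike, so a change of most genes in one direction would not show. The chip definition is not given in the sources used here, nor is a build. Of 41345 rows, 23521 had 1 symbol in the platform annotation, 1814 several and 16010 none, and the row with the highest mean was used for each of 22180 genes. The 6 arrays were fitted by group in R 4.3.3, using lmFit and eBayes of limma 3.58.1 without covariates, two-sided and adjusted by Benjamini-Hochberg over all genes; the fit was tested on simulated data. Members, lists and tests were chosen with earlier results of these data known, and the lists are described by counts and medians only. Described array by array are the 12 members with the smallest p, the 6 receptors and 4 ligands with the highest means, and 12 genes fixed by name, of which Tnfsf12 was not analysed; from each pathway list, the 6 genes with the smallest p and the one with the highest mean could be named, and other genes named were chosen after their values were seen. Levels of different probe sets were not compared. Genes most like Tnfrsf9 are not given, since its values form separate clusters by group.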

Additional observations from a re-analysis of the deposited data

How the results depend on the processing

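The count of called members was 1 in place of 0, Tnfrsf9, in 4 settings. These were genes below the lowest array median left out, genes under the 25th percentile left out, quantile normalization applied again, and a trend and robust prior. Both filters tested fewer genes. Refitting on the kept genes also lowered the unadjusted limma p of Tnfrsf9, from 4.63e-05 to 2.95e-05 and 3.39e-05. What made the call change was not tested in any of the 4 settings. Members at an unadjusted p under 0.05 ranged from 1 to 3 higher and from 3 to 7 lower with 1 array left out, and array weights gave 1 higher. With 1 array left out, 3 to 9 members had all FGF21 values above and 6 to 9 all below the controls, as fewer arrays make separation easier; median centring gave 5 above. The replicate block gave 3 higher and 6 lower members and left Tnfrsf9 at a limma adjusted p of 0.0687. Same-numbered arrays deviated together at r of 0.103, 0.158 and 0.00653, and for 4 of 6 arrays the best match carried the same number. These values do not exclude that the numbers mark pairs. The labels do not say so, and the main fit was left unpaired.

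Of 434 alternative values for single members, 415 kept sign and call, 4 were the Tnfrsf9 calls above and 15 changed sign, all in 8 genes with differences under 0.1. Many of the 415 were bound to keep their sign. The replicate block, the row and filter settings, and the permutation test, which makes no call, repeat each member's difference. So do the trend and robust prior and an ordinary equal-variance statistic. With 1 array left out, Fasl ran from -0.126 to 0.0153, Tnfsf11 from -0.113 to 0.0274, Ltbr from -0.122 to 0.00456, Tnfsf10 from -0.0347 to 0.105, Tnfrsf11b from -0.0763 to 0.0429, Tnfrsf1b from -0.0844 to 0.145 and Tnfrsf1a from -0.0572 to 0.0633. Median centring gave 0.00207 for Ltb and 0.0129 for Tnfrsf11b, and quantile normalization 0.00735 for Tnfrsf11b, -0.0243 for Tnfrsf1b and -0.0607 for Tnfrsf1a. The median over members changed sign only with median centring, to 0.008. Signal near background limits the 15 dim members.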
